A study of Mus musculus with 10 samples.

Results

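The Igf2bp, Lin28 and Hmga genes are a set of 7 oncofetal genes (Igf2bp1, Igf2bp2, Igf2bp3, Lin28a, Lin28b, Hmga1 and Hmga2), taken by name, with every probe set annotated to each symbol on the array. Of these 7 genes, 5 had a probe set named in the annotation used, with 17 probe sets among the 45101 on the array. Igf2bp2 and Hmga1 were not analysed here. At gene level 3 members were tested (Igf2bp1, Igf2bp3 and Hmga2) among 11405 genes, and 9 of the 17 probe sets were bright enough for the tests, among 22519. The set was selected on the array signals of the genotypes, since the difference of Igf2bp1 between knockout and wild type cells was already known. The members' levels and differences between genotypes are therefore given as a description, with no p-value. Nothing is read from any count of members past a threshold. For the members, only the response to sonic hedgehog (Shh) and its dependence on genotype were tested. These tests are not independent of the choice. The responses share arrays with the genotype differences, and the dependence is the genotype difference with Shh minus that without it. Their p-values are to be read with that limit. Genotype differences of other listed genes are given with adjusted p-values, but those lists too were chosen with earlier results of these data known.

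The members are transcripts of the embryo that most adult tissues switch off and many tumours express again. Igf2bp proteins bind messenger RNAs and affect where they lie, how long they last and how well they are translated, and Igf2 mRNA gave the family its name. Lin28a and Lin28b bind the precursor of the microRNA let-7 and block its maturation, while mature let-7 represses Lin28b, Hmga2, Igf2bp1 and Igf2bp3, among others. Hmga proteins are chromatin proteins that bind AT-rich DNA, and in mouse neural stem cells Hmga2 is known to hold down the Cdkn2a locus, which is also a target of the Polycomb protein Bmi1.

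The study measured RNA on 10 Affymetrix arrays, each from primary cells of mouse cerebellum cultured as granule neuron precursors, which divide in response to Shh before they become neurons. The 4 groups were Bmi1 knockout with Shh (2 arrays, replicates 8 and 10), wild type with Shh (2, replicates 7 and 9), Bmi1 knockout untreated (3, replicates 2, 4 and 6) and wild type untreated (3, replicates 1, 3 and 5). All cultures came from pups at postnatal days 5 to 7 and were grown for 24 hours with 20 mM KCl and 10% FCS, and treated ones had Shh for 24 hours at a concentration that the labels give as 3 mg/ml. How many animals each culture came from is not stated in the labels, and the p-values therefore speak for the spread among these 10 arrays alone. The protocol text of wild type replicate 3 mentions Shh where applicable, but its title is that of an untreated culture, as which it was used. The knockout is taken from the labels, since the 2 Bmi1 probe sets gave signals of like size in both genotypes. By 1417493_at Bmi1 ranged from 3416 to 3432 in knockout cells with Shh, 4165 to 4515 in wild type cells with Shh, 3416 to 3904 in untreated knockout cells and 3673 to 4253 in untreated wild type cells, so it was lower in knockout cells with Shh and overlapped without it. By 1448733_at the ranges overlapped between genotypes in both conditions. The labels do not say whether either probe set lies in the deleted stretch, so Bmi1 checks nothing here.

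Values are MAS5 signals in arbitrary units with each array scaled to the same trimmed mean. Median signals were 66.8 to 72.3 on the 4 arrays with Shh and 84.8 to 91.2 on the 6 untreated ones. A floor was set at 20.9 (the 25th percentile), to which lower signals were raised before log2 was taken, so a fold from these log2 values depends on that floor where arrays lie under it. The markers of granule cells were bright throughout, with summed signals of 62749 to 63763 in knockout cells with Shh, 64997 to 65034 in wild type cells with Shh, 59164 to 62451 in untreated knockout cells and 57421 to 71031 in untreated wild type cells. None of the 11 measured granule markers was at the floor on any array. Markers of other cell types differed between conditions, and their values stand beside the results below.

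The microRNA that links these genes is shown first, because its targets are one of the gene lists described below. RefSeq (GRCm38.p6) lists 11 mature let-7 family names, and 10 of them share the seed (bases 2 to 8, in capitals), while let-7j differs in it. let-7 itself was not measured on these arrays.
mmu-let-7a-5p (chr13:48538239-48538260, minus strand): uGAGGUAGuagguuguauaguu
mmu-let-7b-5p (chr15:85707325-85707346, plus strand): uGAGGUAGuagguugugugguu
mmu-let-7g-5p (chr9:106178846-106178867, plus strand): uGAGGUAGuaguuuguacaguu
mmu-let-7j (chr3:140028281-140028304, plus strand): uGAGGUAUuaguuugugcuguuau

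RefSeq promoter windows of 300 bases (250 before to 50 after a start) matched 6 members with 7 windows, and Igf2bp1 had no entry. These windows held 8 to 47 CpG dinucleotides, against a median of 7 (quartiles 3 and 20) over 32851 windows. The sequence CACGTG, an E-box of the kind that Myc and Mycn bind, which reads the same on both strands, was found in the windows of 2 members, Igf2bp3 and Lin28b, and in 7.15% of all windows. The Gli motif GACCACCCA, sought on both strands, was in 0 member windows and in 0.253% of all windows. The windows of the 2 members with a match are shown with the E-box in capitals. In the Igf2bp3 window it begins 23 bases before the start and again at base 6 after it, and the window holds 25 CpG. In the Lin28b window it begins 49 bases before the start, and the window holds 8 CpG. Both windows lie within the spans of their genes (chr6:49085218-49215469 and chr10:45376617-45486314), so these starts are not the outermost ones.
Igf2bp3 (chr6:49214905-49215204, minus strand): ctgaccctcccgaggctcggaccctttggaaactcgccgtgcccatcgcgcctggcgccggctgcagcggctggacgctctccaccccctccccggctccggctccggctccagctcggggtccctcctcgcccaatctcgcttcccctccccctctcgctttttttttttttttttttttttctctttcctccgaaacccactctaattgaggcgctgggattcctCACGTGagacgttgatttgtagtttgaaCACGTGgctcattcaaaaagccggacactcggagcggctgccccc
Lin28b (chr10:45470152-45470451, minus strand): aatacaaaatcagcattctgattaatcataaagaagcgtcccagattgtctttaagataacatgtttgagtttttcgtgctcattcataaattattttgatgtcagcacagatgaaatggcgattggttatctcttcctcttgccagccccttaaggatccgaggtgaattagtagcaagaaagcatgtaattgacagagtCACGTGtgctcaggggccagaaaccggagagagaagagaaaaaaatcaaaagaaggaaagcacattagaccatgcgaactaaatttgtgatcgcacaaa

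Igf2bp1 encodes a KH-domain protein that binds and stabilises mRNAs in fetal tissues, and its gene lies on chromosome 11 (GRCm38.p6, chr11:95957163-96005944). By its brightest probe set, 1455223_at, Igf2bp1 read 532 and 304 in knockout cells with Shh, against 40.7 and 18.8 in wild type cells with Shh. In untreated cells it read 287, 222 and 274 in knockout cultures, against 34.6, 53.6 and 16.6 in wild type cultures. All 5 knockout arrays lay above all 5 wild type arrays, and 2 of the wild type arrays, replicates 5 and 9, were at the floor. The log2 difference between genotypes was 3.78 (SE 0.45) with Shh and 2.94 (SE 0.37) without it, which are 13.8-fold and 7.67-fold between geometric means of the floored signals.

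The other 3 Igf2bp1 probe sets gave the same order of genotypes on the signals as deposited. By 1418761_at the transcript read 298 and 193 in knockout cells with Shh, against 38.0 and 8.24 in wild type cells with Shh, and 181, 140.1 and 174 in untreated knockout cells, against 19.7, 60.4 and 41.4 in untreated wild type cells. By 1459825_x_at it read 406 and 213 in knockout cells with Shh, against 27.1 and 11.1 in wild type cells with Shh, and 180.0, 126 and 136 in untreated knockout cells, against 21.1, 20.9 and 44.3 in untreated wild type cells. Neither of these probe sets showed any overlap between genotypes in either condition. By the dim 1449210_at, all 5 wild type arrays were at the floor, and so were 2 of the 3 untreated knockout arrays, while knockout cells with Shh read 30.7 and 45.1. That is at least 1.78-fold higher in knockout cells with Shh than in wild type cells with Shh. The probe sets 1418761_at and 1449210_at were made to the same sequence entry, so they are not independent readings.

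**Figure D1:**
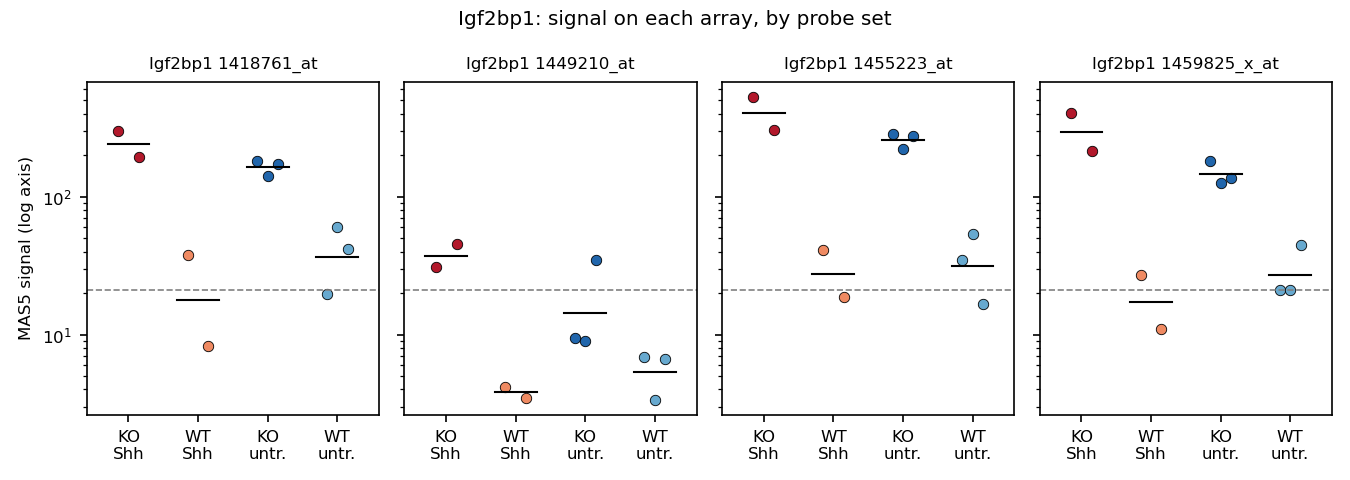
Igf2bp1 signal (MAS5 units, log axis) on each array for its 4 probe sets; points are arrays, bars are geometric means and the dashed line is the floor of 20.9. In each panel the knockout (KO) points lie above the wild type (WT) points of the same condition, with Shh and untreated (untr.).

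Igf2bp1 was not called as responding to Shh in either genotype. With Shh minus untreated, the log2 difference was 0.63 (SE 0.41, 95% interval -0.30 to 1.56) in knockout cells, where 3 of the 4 probe sets had both Shh arrays above all 3 untreated arrays. Among all probe sets bright enough for testing, 23.3% showed that order. Of the 3, 1459825_x_at was not bright enough for testing. In wild type cells, whose values were near the floor, the difference was -0.21 (SE 0.41, 95% interval -1.14 to 0.72). The limma adjusted p over all genes was 0.291 in knockout cells and 0.725 in wild type cells. The response in knockout minus that in wild type cells was 0.85 (SE 0.58, adjusted p = 1.00), and by probe set it ranged from 0.59 to 1.19. All these intervals include 0, and they are wide enough that an equal response of the genotypes was not shown.

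Igf2bp3, the family member found in placenta, embryo and many carcinomas, lies on chromosome 6 (chr6:49085218-49215469) and was above the floor on all 10 arrays by all 6 of its probe sets. By its brightest probe set, 1422610_s_at, Igf2bp3 read 1718 and 1364 in knockout cells with Shh, against 1003 and 990.4 in wild type cells with Shh. In untreated cells it read 1503, 1323 and 1417 in knockout cultures, against 744, 680.2 and 569 in wild type cultures. Knockout arrays were above wild type arrays in both conditions, and wild type cells with Shh lay between untreated wild type cells and all knockout arrays. The log2 difference between genotypes was 0.62 (SE 0.15) with Shh and 1.10 (SE 0.13) without it, or 1.54-fold and 2.14-fold.

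By 1422611_s_at Igf2bp3 read 773 and 559 in knockout cells with Shh, against 414 and 404 in wild type cells with Shh, and 576, 559 and 624 in untreated knockout cells, against 339, 359 and 289 in untreated wild type cells. By 1433732_x_at it read 675 and 583 in knockout cells with Shh, against 495 and 444 in wild type cells with Shh, and 599, 597 and 725 in untreated knockout cells, against 309.9, 309 and 396 in untreated wild type cells. Genotypes did not overlap for these probe sets in either condition. By 1453957_a_at it read 336 and 271 in knockout cells with Shh, against 189.9 and 224 in wild type cells with Shh, and 289, 284 and 249.8 in untreated knockout cells, against 146, 225 and 103 in untreated wild type cells. The genotypes did not overlap for this probe set either.

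For the remaining Igf2bp3 probe sets the genotypes overlapped in at least 1 condition. By 1450687_at the readings were 173 and 130.0 in knockout cells with Shh, against 141 and 129 in wild type cells with Shh, which overlap, and 176, 171 and 151 in untreated knockout cells, against 66.7, 113 and 63.4 in untreated wild type cells, which do not. By 1433731_at the readings were 593 and 498 in knockout cells with Shh, against 507 and 484 in wild type cells with Shh, and 455, 517 and 671 in untreated knockout cells, against 321, 325 and 482 in untreated wild type cells, and both comparisons overlap. Over the 6 probe sets the genotype difference ran from 0.13 to 0.69 on the log2 scale with Shh and from 0.55 to 1.10 without it. The 6 are not 6 independent readings, because 3 were made to 1 sequence entry (1422610_s_at, 1422611_s_at and 1450687_at) and 2 to another (1433731_at and 1433732_x_at).

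**Figure D2:**
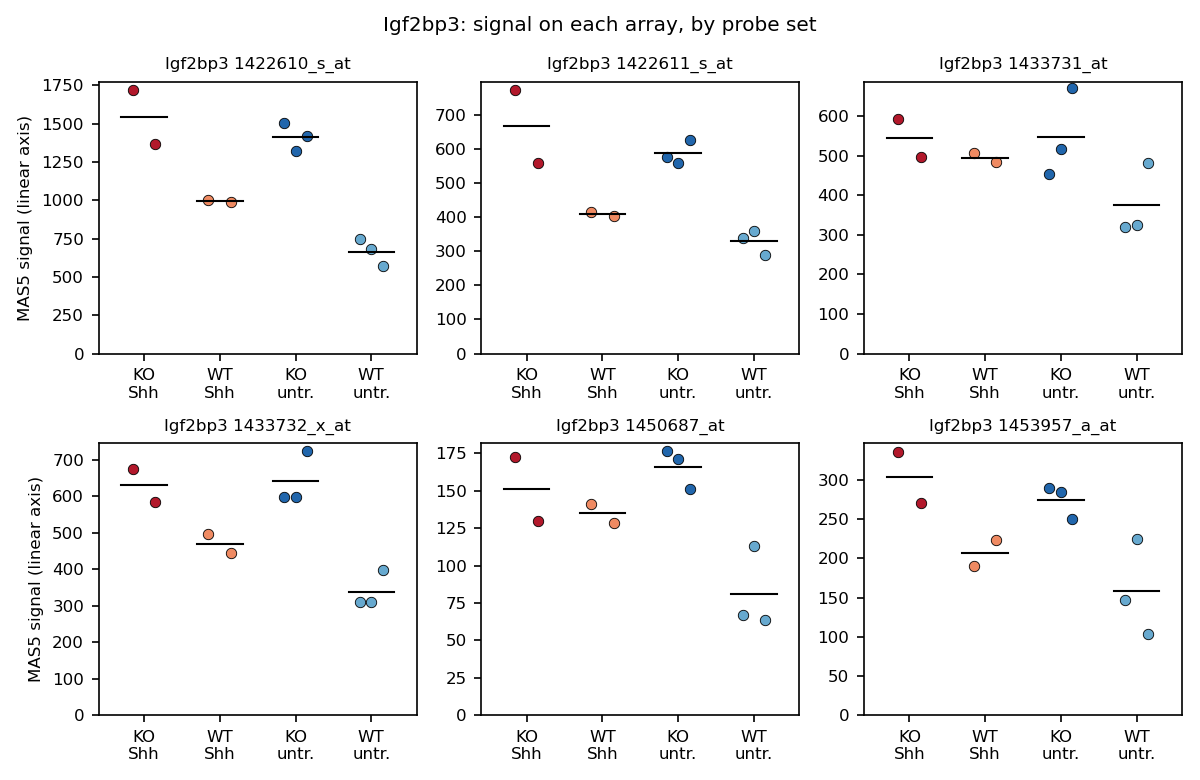
Igf2bp3 signal (MAS5 units, linear axes from 0) on each array for its 6 probe sets; points are arrays and bars are means, for knockout (KO) and wild type (WT) cells with Shh and untreated (untr.). Wild type cells with Shh stand above untreated wild type cells in 5 of the 6 panels without overlap, and in no panel do knockout cells with Shh stand clear of untreated knockout cells.

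Igf2bp3 rose with Shh in wild type cells. The log2 difference, Shh minus untreated, was 0.59 (SE 0.14, 95% interval 0.28 to 0.91), or 1.51-fold, with a limma adjusted p of 0.0108. All 6 probe sets were higher with Shh in wild type cells, from 0.32 to 0.79 on the log2 scale. In 5 of them both Shh arrays lay above all 3 untreated arrays, an order found in 24.5% of all probe sets tested, and 3 of the 6 passed when probe sets were tested one by one, as 9.82% of all did in this direction. In knockout cells the difference was 0.12 (SE 0.14, 95% interval -0.20 to 0.43, adjusted p = 0.580), 4 of the 6 probe sets were higher with Shh and 0 passed, where 7.62% of all did. Averaged over both genotypes the difference was 0.35 (SE 0.10, adjusted p = 0.0162). The test of the difference between the responses, knockout minus wild type, gave -0.48 (SE 0.20) and did not pass over all genes (adjusted p = 0.981). In a separate limma fit to all probe sets without the filter, its unadjusted p was 0.0459. In the gene-level limma fit, 561 of 11405 genes had an unadjusted p under 0.05 for this difference. All 6 probe sets had a negative value of it, from -0.93 to -0.15, but they are not independent readings. The value is also the difference between the genotype differences, which were in view when the genes were chosen. A smaller response in knockout cells is therefore not read from it. The call in wild type cells was lost without replicate 7 (adjusted p = 0.0590) or replicate 9 (0.0560), each of which leaves 1 treated wild type array assumed to vary like the other groups, while it held without any other single array and under the 10 alternatives that leave out no single array, which gave 0.51 to 0.94 (adjusted p 0.00106 to 0.0257).

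The response stands among many, since Shh changed 33.8% of all genes tested in wild type cells (14% higher and 19.8% lower) and 28% in knockout cells (11% higher and 17% lower). Of the 3 members tested, 1 rose with Shh in wild type cells and 0 in knockout cells. With arrays scaled to the same median, the Shh difference in knockout cells was 0.41 for Igf2bp3 (adjusted p = 0.0534) and 0.92 for Igf2bp1 (adjusted p = 0.0850), beside a median of 0.29 over all genes. Other cell types moved with the treatment. Summed signals of 8 endothelial and pericyte markers were 292 to 298 in knockout cells with Shh, 318 to 356 in wild type cells with Shh, 6154 to 7850 in untreated knockout cells and 6103 to 7160 in untreated wild type cells, and all 6 tested markers fell in each genotype. Purkinje cell markers fell in 5 of 5 cases, with sums of 7035 to 9028 in knockout cells with Shh, 6774 to 7128 in wild type cells with Shh, 25519 to 46396 in untreated knockout cells and 21431 to 35798 in untreated wild type cells. In wild type cells 6 of 8 astrocyte, 6 of 7 GABAergic, 5 of 10 microglial, 4 of 6 oligodendrocyte and 4 of 6 fibroblast and meningeal markers fell as well. The part of these cell types in the members' response was not tested, and in such bulk cultures fewer cells of a type and less RNA per cell cannot be told apart.

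Hmga2, on chromosome 10 (chr10:120361268-120476469), was dim, and 1 of its 4 probe sets was bright enough for testing. By 1450780_s_at Hmga2 read 61.8 and 58.8 in knockout cells with Shh, against 53.0 and 75.1 in wild type cells with Shh. In untreated cells it read 134, 74.5 and 93.3 in knockout cultures, against 57.4, 115 and 94.6 in wild type cultures. The genotypes overlapped in both conditions, with log2 differences of -0.07 (SE 0.35) with Shh and 0.19 (SE 0.28) without it. Both knockout arrays with Shh lay below the 3 untreated knockout arrays, as for 27.6% of all probe sets tested, while in wild type cells the conditions overlapped. The Shh minus untreated difference was -0.70 (SE 0.32, adjusted p = 0.135) in knockout cells, -0.44 (SE 0.32, adjusted p = 0.319) in wild type cells and -0.57 (SE 0.22, adjusted p = 0.0636) on average, none of which passed in limma. The average passed without replicate 1 (adjusted p = 0.0143), without replicate 4 (0.0400), and without replicates 1 and 6 together (0.0262). With the arrays rescaled by quantile or to the same median it was -0.25 (adjusted p 0.353 and 0.295).

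The other Hmga2 probe sets lay mostly at the floor. By 1422851_at the readings were 50.9 and 57.0 in knockout cells with Shh, against 26.3 and 8.37 in wild type cells with Shh, and 50.4, 6.73 and 80.7 in untreated knockout cells, against 11.9, 41.9 and 3.52 in untreated wild type cells. Genotypes were separate with Shh and overlapped without it, which differs from 1450780_s_at although both, with 1450781_at, were made to 1 sequence entry. By 1446196_at and 1450781_at no group was above the floor on every array.

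Lin28b, on chromosome 10 (chr10:45376617-45486314), had 1 probe set, 1430803_at, whose mean was under the filter. It read 34.8 and 28.7 in knockout cells with Shh, against 0.85 and 21.2 in wild type cells with Shh. In untreated cells it read 45.6, 34.5 and 45.3 in knockout cultures, against 22.9, 1.30 and 14.7 in wild type cultures. All 5 knockout arrays were above all 5 wild type arrays, and 3 of the wild type arrays were at the floor, so the differences of 0.59 (SE 0.15) with Shh and 0.94 (SE 0.13) without it on the log2 scale depend on the floor. Within knockout cells the Shh minus untreated difference was -0.39 (SE 0.14), and the highest Shh array was just above the lowest untreated one.

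Lin28a, a factor of pluripotent cells, was at or near the floor. By 1421749_at it read 11.1 and 13.3 in knockout cells with Shh, against 19.3 and 2.64 in wild type cells with Shh, all at the floor. In untreated cells it read 34.9, 21.2 and 35.1 in knockout cultures, against 1.46, 37.6 and 11.1 in wild type cultures. The untreated genotypes overlapped through wild type replicate 3. By 1437752_at a single array was above the floor, knockout with Shh replicate 8 at 25.9.

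**Figure D3:**
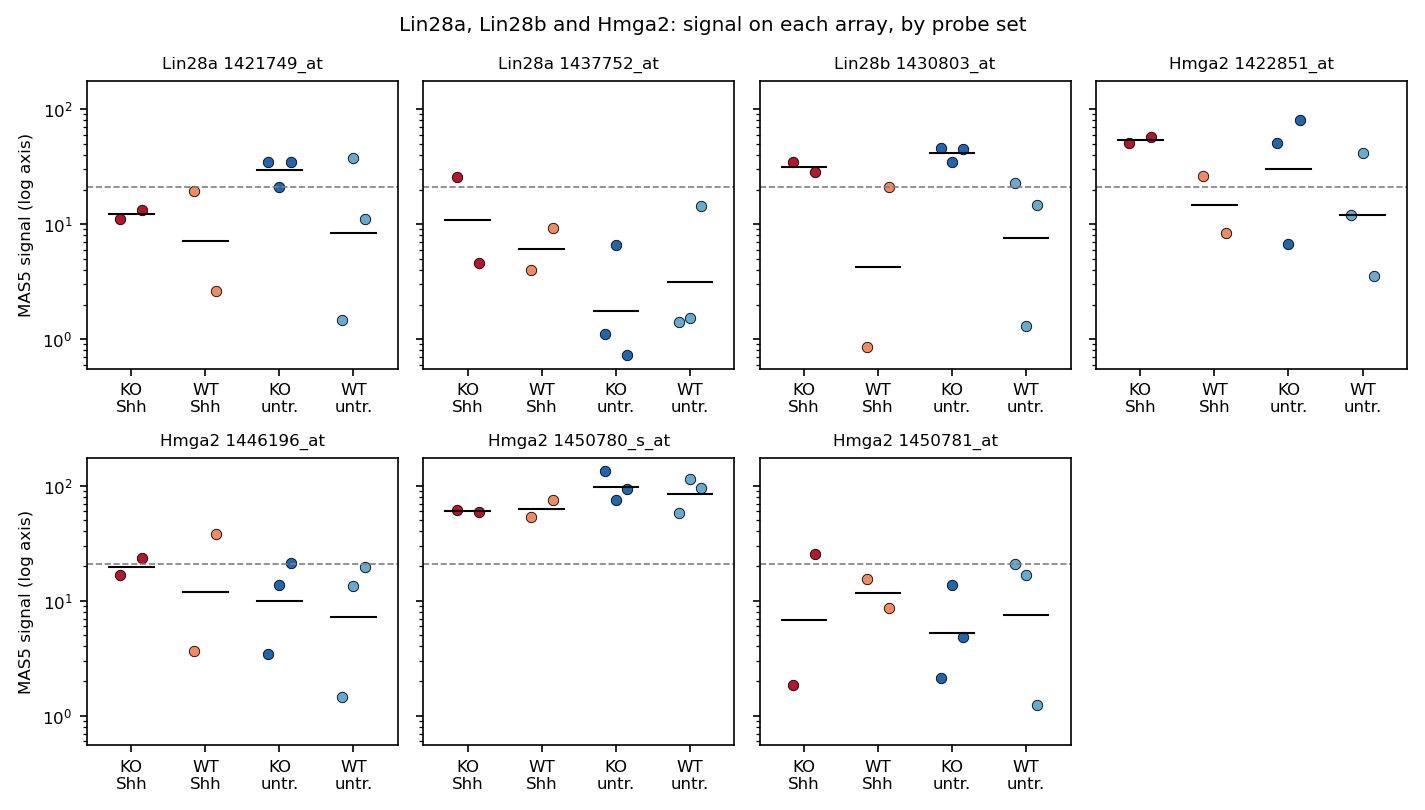
Lin28a, Lin28b and Hmga2 signal (MAS5 units, log axis) on each array by probe set; points are arrays, bars are geometric means of the signals and the dashed line is the floor of 20.9, for knockout (KO) and wild type (WT) cells with Shh and untreated (untr.). Lin28b is the only panel in which knockout and wild type points are separate in both conditions, and the Hmga2 probe set 1450780_s_at is the only one above the floor on all 10 arrays.

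Set side by side, 2 of the 3 tested members passed the threshold for a higher level in untreated knockout cells (Igf2bp1 and Igf2bp3), where 0.324% of all genes did, and 1 with Shh (Igf2bp1), where 0.614% did. Of all 17 probe sets, 10 had every knockout array above every wild type array with Shh and 10 did in untreated cells, orders found in 21.1% and 6.3% of the probe sets bright enough for testing. As the genes were chosen with these contrasts in view, nothing is read from any of these counts. Igf2bp1 passed the filter on its knockout arrays, since none of its wild type readings reached the filter. Just inside the filter of 76.1 on the geometric mean were Hmga2 1450780_s_at and Igf2bp1 1418761_at, and just outside it was Igf2bp1 1459825_x_at. The 2 genotype comparisons use different arrays, whereas the Shh effects share arrays with them, so the values are given beside each other and were not correlated.

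**Figure D4:**
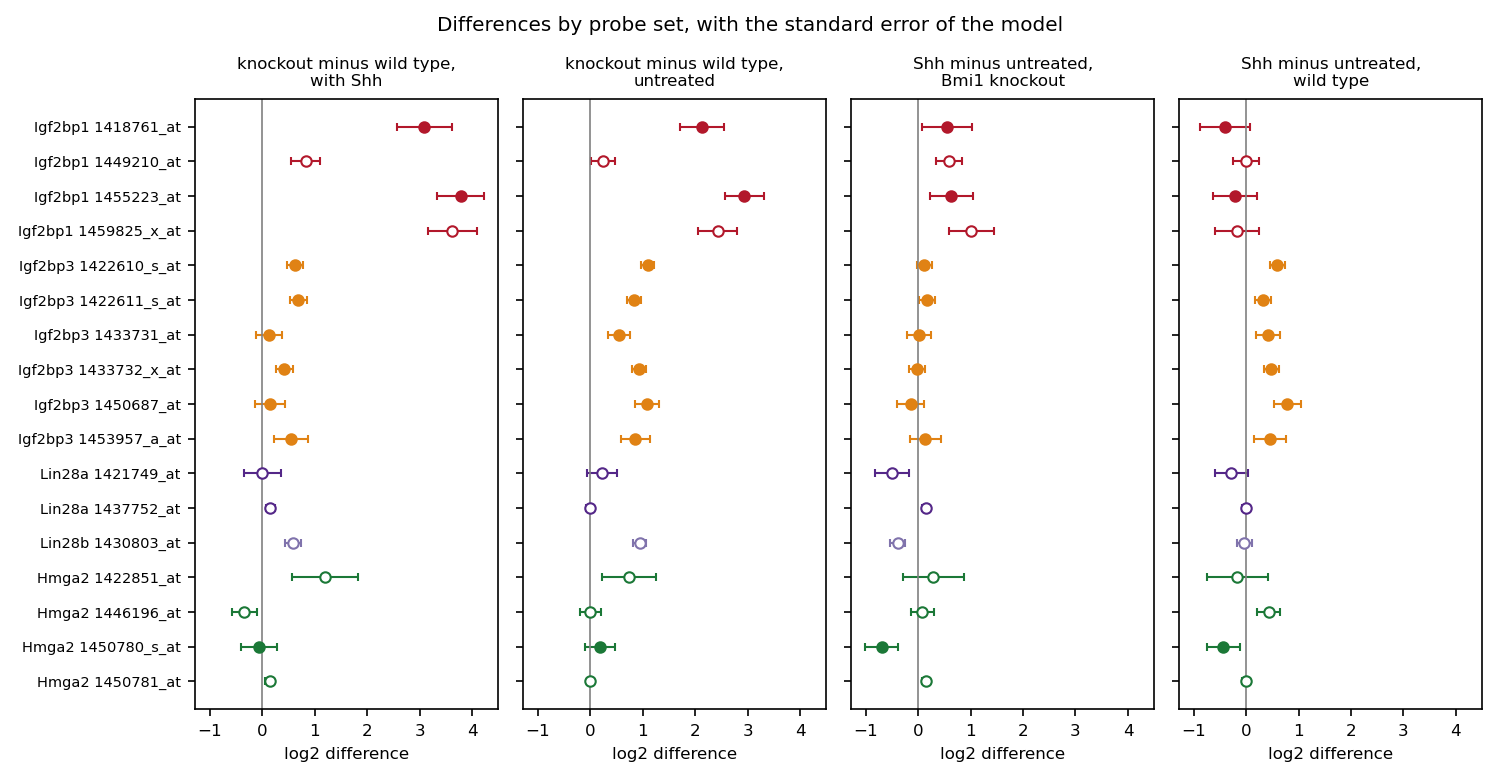
Log2 differences for the 17 probe sets, with the model's standard error: knockout minus wild type with Shh and untreated, and Shh minus untreated in knockout and wild type cells. Filled points are the 9 probe sets past the filter. Igf2bp1 stands far to the right in both genotype panels, except by the dim 1449210_at (0.83 with Shh and 0.24 untreated). All 6 Igf2bp3 probe sets lie right of 0 for Shh in wild type cells and within 0.17 of it in knockout cells.

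The genes whose profile over the 10 arrays lay closest to Igf2bp1, by the root mean square difference of centred log2 values, were Cdkn2a (0.53), Actc1 (0.57), Pmaip1 (0.71), Sst (0.82) and Lhx2 (0.91). This distance includes the genotype difference that chose Igf2bp1, so genes much higher in knockout cells come close by it. The likeness is therefore given as a description. Cdkn2a, which encodes the cell cycle inhibitor p16 and the p53 activator Arf, read 329 and 451 in knockout cells with Shh, against 31.1 and 24.0 in wild type cells with Shh, and 273, 271 and 301 in untreated knockout cells, against 35.7, 30.2 and 41.6 in untreated wild type cells. Its Shh minus untreated difference was 0.45 in knockout cells and -0.38 in wild type cells, beside 0.63 and -0.21 for Igf2bp1, and neither gene passed. With arrays scaled to the same median, which raised the median Shh difference of all genes, Cdkn2a passed in knockout cells (0.74, adjusted p = 0.0106). With quantile normalization it did not (0.57, adjusted p = 0.0573). Sst, a neuropeptide of GABAergic interneurons, belongs to a marker list of which 4 of 7 tested genes were higher in knockout cells on average. Of all genes 1.22% were. On average 3 of 10 microglial markers were lower, where 1.54% of all genes passed in either direction. Oligodendrocyte lineage markers were higher in knockout cells in 3 of 6 cases with Shh (median 1.05), in 0 without it and in 2 on average (median 0.55). The shares of all genes that were higher were 0.614%, 0.324% and 1.22%. The part of any of these in the level of Igf2bp1 was not tested. Closest to Igf2bp3 were Slc16a4 (0.21), Psrc1 (0.23), Dpysl4 (0.23), Bbc3 (0.24) and Epha3 (0.25). Closest to Hmga2 were Galc (0.17), Faah (0.18), Caln1 (0.18), Zkscan16 (0.20) and Camk2b (0.22).

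Other known let-7 targets were counted without the members, and 22 were tested. For genotype 0 of them passed with Shh and 0 without it. On average over both conditions 2 rose in knockout cells and 0 fell, where 1.22% of all genes rose. The nuclear receptor Nr6a1, an embryonic repressor of pluripotency genes, read 79.9 and 80.8 in knockout cells with Shh, against 33.2 and 53.4 in wild type cells with Shh, and 118, 128 and 144 in untreated knockout cells, against 75.6, 65.7 and 66.0 in untreated wild type cells. Knockout was above wild type in both conditions, by 0.92 on average (SE 0.13, adjusted p = 0.00984). The cell cycle kinase Cdk6 read 4229 and 3822 in knockout cells with Shh, against 3399 and 2991 in wild type cells with Shh, and 2931, 2573 and 2516 in untreated knockout cells, against 1895, 1851 and 1788 in untreated wild type cells. It was higher by 0.43 (SE 0.08, adjusted p = 0.0289), a call that was lost with arrays scaled to the same median (0.40, adjusted p = 0.0737). The median of the 22 was 0.12 for the average genotype difference, beside 0.02 for all genes.

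With Shh, 9 of the 22 let-7 targets rose and 5 fell on average over both genotypes, where 20.9% of all genes rose and 26.2% fell. Those that rose included Cdk6 (0.69, SE 0.08), the ubiquitin-conjugating enzyme gene Cdc34 (0.69, SE 0.08), the Shh target Ccnd1, or cyclin D1 (0.68, SE 0.10), and the transcription factor gene Mycn (0.52, SE 0.10), with adjusted p-values from 9.76e-05 to 0.00188. Those that fell included Nr6a1 (-0.70, SE 0.13, adjusted p = 0.00204) and the DNA-binding factor Arid3a (-0.58, SE 0.09, adjusted p = 0.00102). Scaling arrays to the same median, which put the median Shh difference of all genes at 0.31 against -0.01 as deposited, gave 10 higher and 2 lower, and Arid3a kept its direction at -0.26 (adjusted p = 0.0466) and, with quantile normalization, at -0.34 (adjusted p = 0.0243).

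**Figure D5:**
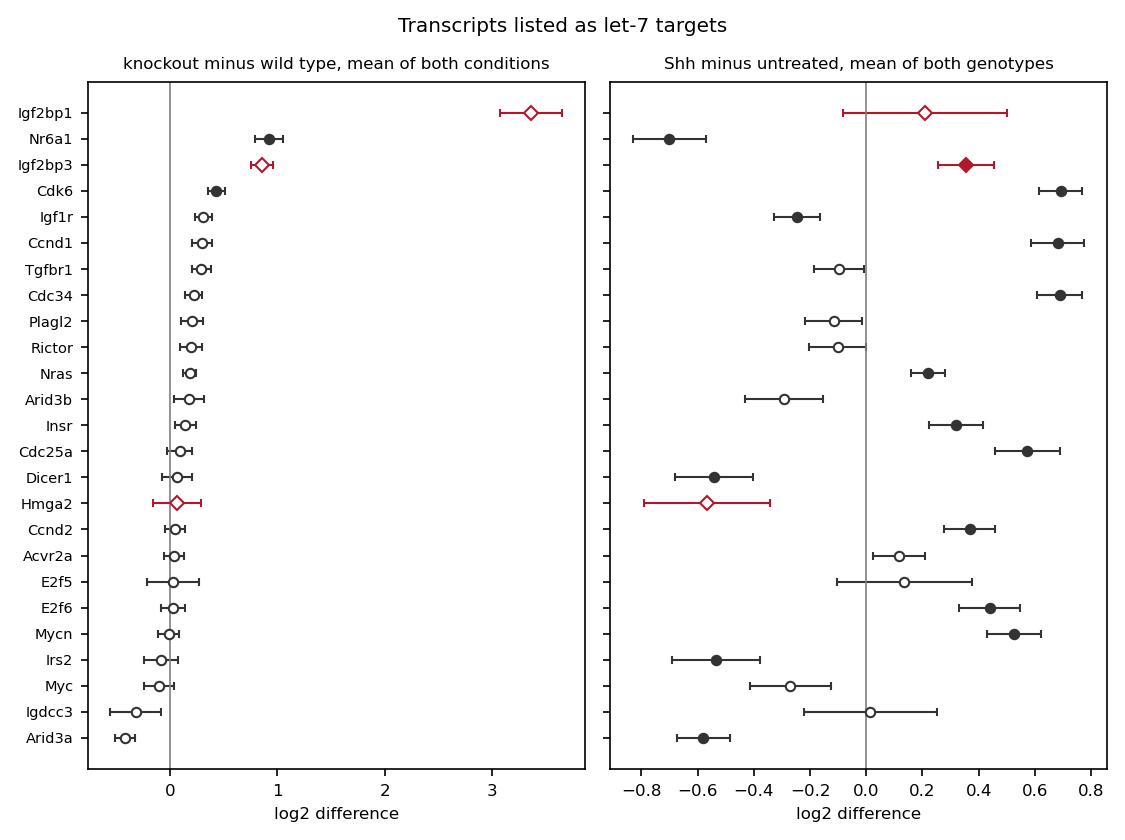
Log2 differences with the model's standard error for the 25 tested let-7 targets: knockout minus wild type averaged over both conditions, and Shh minus untreated averaged over both genotypes. Red diamonds are members of the oncofetal set, filled symbols passed the adjusted threshold of 0.05, and calls of the members are not shown for genotype. Igf2bp1 stands at 3.36 for genotype with the others at or below 0.92, and the Shh differences spread on both sides of 0.

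Among 18 tested genes that process or turn over let-7 and other microRNAs, 0 passed for genotype in either condition or on average, where 0.377% of all genes passed untreated, 0.728% with Shh and 1.54% on average. With Shh, 2 rose and 3 fell on average, where 20.9% of all genes rose and 26.2% fell. Ago2, the slicing Argonaute, read 2710 and 2366 in knockout cells with Shh, against 1636, 1372 and 1435 in untreated knockout cells, and 2165.6 and 2020 in wild type cells with Shh, against 1270, 1403 and 1158 in untreated wild type cells. It rose by 0.75 (SE 0.09, adjusted p = 0.000131), with no overlap in either genotype, and the helicase gene Ddx17 by 0.20 (adjusted p = 0.0434). Dicer1, which cuts the precursor, fell by 0.54 (SE 0.14, adjusted p = 0.0111), the RNA-binding factor Hnrnpa1 fell by 0.25 (adjusted p = 0.0206) and the uridylating enzyme gene Tut7 fell by 0.20 (adjusted p = 0.0435). Scaling arrays to the same median raised the median Shh difference of all genes, so counts under it do not describe this list alone. Under that scaling 9 rose and 0 fell, Dicer1 stood at -0.22 (adjusted p = 0.158), and Hnrnpa1 (0.07) and Tut7 (0.12) changed sign. With quantile normalization 1 rose and 5 fell, and the call of Ddx17 was lost (0.12, adjusted p = 0.161). Trim71, an RNA-binding protein of the embryo and itself a let-7 target, lay at or near the floor, from 1.60 to 40.1 over the arrays.

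Of 10 tested mRNAs that Igf2bp proteins are known to bind, Igf2 was the one that passed for genotype with Shh (0.614% of genes did), and 0 passed without Shh. Igf2, a fetal growth factor, read 426 and 404 in knockout cells with Shh, against 138 and 129.6 in wild type cells with Shh, and 647, 751 and 680.3 in untreated knockout cells, against 642, 565 and 635 in untreated wild type cells. It fell by 0.74 (SE 0.10, adjusted p = 0.00103) in knockout cells and by 2.20 (SE 0.10, adjusted p = 2.39e-06) in wild type cells. Its interaction of 1.46 (SE 0.15, adjusted p = 0.0382) was the only one past the threshold among all genes (0.00877%), while 0 genes passed with either rescaling of the arrays or without any single array other than replicate 7. At an unadjusted p under 0.05 there were 561 genes. Igf2 is also in the fibroblast and meningeal marker list, whose summed signal was 4529 to 4539 in knockout cells with Shh, 4939 to 5076 in wild type cells with Shh, 5100.5 to 5713 in untreated knockout cells and 4746 to 6103 in untreated wild type cells. Of its 6 tested markers, Igf2 among them, 5 fell and 1 rose with Shh on average, with a median of -1.48. Of all genes 26.2% fell and 20.9% rose. The part of these cells in the Igf2 values was not tested. On average over genotypes Shh raised Gli1, the effector of Shh signalling (0.81, SE 0.08, adjusted p = 6.87e-05), the adhesion receptor gene Cd44 (0.65, adjusted p = 0.0137) and Mapt, which encodes tau (0.30, adjusted p = 0.0141). The matrix gene Fn1 fell by 1.71 (SE 0.17, adjusted p = 4.70e-05), and the part of any cell type in its fall was not tested. The same-median scaling, which raised the median Shh difference of all genes, gave 6 higher and 2 lower of the 10, against 3 higher and 2 lower as deposited. With quantile normalization the call of Mapt was lost (0.23, adjusted p = 0.0653).

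Of 14 tested fetal and imprinted growth genes, 4 were higher in knockout cells on average and 0 were lower, where 1.22% of all genes were higher. In untreated cells 1 was higher (0.324% of all genes) and with Shh 3 were (0.614%). The median of the 14 was -0.001 on average, beside 0.02 for all genes. The list was chosen with earlier results of these data known, so nothing is read from these counts. Besides Igf2, the 4 were the imprinted gene Zdbf2 (1.72, SE 0.16, adjusted p = 0.00112), Grb10, an imprinted adaptor that restrains growth factor receptors (1.26, SE 0.13, adjusted p = 0.00161), and the imprinted non-coding RNA gene Meg3 (0.64, SE 0.12, adjusted p = 0.0326). With Shh 2 rose and 6 fell on average, where 20.9% of all genes rose and 26.2% fell, and those that fell included Dlk1, a fetal membrane protein (-1.72, SE 0.19, adjusted p = 9.47e-05), and Gpc3, a fetal proteoglycan (-1.14, SE 0.17, adjusted p = 0.000571). The same-median scaling, which raised the median Shh difference of all genes, gave 6 higher and 6 lower. Grb10 and Meg3 were higher in knockout cells yet lower with Shh.

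Of 9 tested genes linked to Hmga proteins, Cdkn2a was the one that passed for genotype, where 1.54% of all genes passed on average. With Shh 4 rose and 1 fell on average, where 20.9% of all genes rose and 26.2% fell. The proliferation genes E2f1 (0.56, SE 0.06, adjusted p = 0.000122), Ccna2 (0.41, adjusted p = 0.00172) and Ccnb2 (0.42, adjusted p = 0.00115) and the insulin receptor gene Insr (0.32, adjusted p = 0.0228) rose, while the immediate early gene Junb fell by 2.35 (SE 0.28, adjusted p = 0.000175). Of 13 tested markers of neural stem and early progenitor cells, 0 passed for genotype, with a median of 0.25 on average beside 0.02 for all genes. With Shh 1 rose and 7 fell on average, beside the same shares of all genes. The same-median scaling raised the median Shh difference of all genes. Under it 7 of the Hmga-linked genes rose and 1 fell, and 2 of the stem cell markers rose and 6 fell.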

How the data were processed

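RNA of all 4 groups was measured on Affymetrix mouse genome arrays. The deposited values are signal intensities that the authors computed with GCOS 1.2 and the MAS5 algorithm, per the submitters' processing notes. In the files each array has the same trimmed mean (2% trimmed at each end), so the values were used as scaled. Of the non-control probe sets, 34945 had 1 gene symbol, 932 several and 9160 none, and 64 control probe sets were left out. Entrez identifiers of 34754 probe sets matched RefSeq (GRCm38.p6).

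Signals were floored at 20.9, the 25th percentile (log2 4.39), and log2 was taken. Probe sets with a mean log2 under 6.25 (signal 76.1), the median of all, were left out, and the brightest probe set stood for a gene. All 10 arrays were fitted in 1 linear model with limma 3.58.1 in R 4.3.3 (6 residual and 3.11 prior degrees of freedom), with two-sided tests, Benjamini-Hochberg adjustment over all genes and a threshold of 0.05. The script was tested on simulated data. The number of arrays limits the precision.

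The members and gene lists were chosen with earlier results of these data known. All probe sets of the 7 members are reported, with the 5 genes nearest in profile and, from each list, up to 6 genes with the smallest adjusted p-value, plus Igf2, Trim71, Cdkn2a, Dicer1 and Gli1. Nr6a1 and Zdbf2 were named after their values were seen, to complete short counts. Consecutive replicate numbers were checked as knockout and wild type pairs. Deviations from group means correlated at 0.278, 0.120 and 0.218 in the untreated pairs, and from -0.265 to 0.0529 in other pairings, and at 0.160 with Shh, so the pairing rests on the data alone. Alternatives were other scalings, floors, filters and probe set choices, arrays left out and the pair as a block.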

Additional observations from a re-analysis of the deposited data

How the results depend on the processing

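Counts of members between genotypes concern the contrast that chose them and support nothing. Without Shh, 2 members passed the threshold as analysed, 1 with no filter on dim probe sets, 1 with the mean of a gene's probe sets, and 0 without arrays 1 and 6, where the differences stayed as large (Igf2bp1 2.91 against 2.94, Igf2bp3 1.18 against 1.10). With Shh, 1 passed as analysed, 0 with the mean of probe sets and 0 with only the arrays compared. For the average genotype difference 2 passed, 3 did with no filter on dim probe sets, and 1 did with the mean of probe sets, under which Igf2bp1 falls below the filter. For the average Shh effect 1 passed, and 2 did without arrays 1 and 6. Leaving out each array in turn gave 1 to 2 members for genotype without Shh, 0 to 1 with Shh, 0 to 1 for Shh in wild type cells and 0 to 2 for the average Shh effect. Hmga2 changed sign between genotypes without arrays 1 and 6 (-0.0611 untreated and -0.0635 on average), and the cause was not tested. Leaving out single arrays also moved values across 0. Hmga2 ranged from -0.0943 to 0.406 for genotype without Shh, -0.317 to 0.185 with Shh, -0.0801 to 0.189 on average and -0.509 to 0.0285 for the interaction. Igf2bp3 ranged from -0.0498 to 0.282 for Shh in knockout cells. Igf2bp1 ranged from -0.694 to 0.267 for Shh in wild type cells and from -0.0308 to 0.449 for the average Shh effect. The average Shh call of Igf2bp3 was lost without replicate 8 (adjusted p = 0.0701). Of all member values under alternatives, 369 kept direction and side of the threshold, 12 lost the call, 3 gained one and 13 reversed. The replicate block with consecutive numbers as pairs (consensus correlation 0.289) changed no member's call. The number of genes called between genotypes without Shh was 43 as analysed, 66 with 50 added before log2, 23 with the replicate block and 10 without arrays 1 and 6. It was 25 without replicate 1 and 19 without replicate 6. With Shh it was 83, against 51 with quantile normalization, 49 with probe sets tested separately, 52 without arrays 1 and 6, 50 with the replicate block and 3 with only the arrays compared. On average it was 176, against 103 with separate probe sets and 80 without arrays 1 and 6. Same-median scaling gave 5475 genes for Shh in knockout cells, against 3199, and 6423 in wild type cells, against 3855. Leaving out single arrays brought these counts as low as 29 for genotype with Shh (replicate 8), 82 for the average (replicate 9), 1893 for Shh in knockout cells (replicate 8) and 2380 in wild type cells (replicate 9). The interaction, with 1 gene as analysed, had 0 to 8 over all alternatives. List counts under other scalings were added after seeing the data. A fit to only the compared arrays was not possible for averages and the interaction. Dim members (Lin28a, Lin28b and most Hmga2 probe sets) are limited by signal near the floor.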
